A study of Mus musculus with 6 samples.

Results

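Integrin alpha6 beta4, the laminin chains of epithelial basement membranes and the proteins of the hemidesmosome were described through 9 genes chosen by name: Itga6, Itgb4, Lama3, Lama5, Lamb1, Lamb3, Lamc1, Col17a1 and Dst. All 9 were found among the 47643 mouse gene identifiers of the count tables, of which 21717 had a count in at least 1 tumor. RNA came from CD45-EPCAM+ cells sorted from 6 breast tumors of MMTV-PyMT mice, an FVB/N line in which the mouse mammary tumor virus promoter drives the polyomavirus middle T oncoprotein in mammary epithelium. Every tumor had received the anti-VEGF-A antibody B20-4.1.1 at 5 mg/kg into the peritoneum, 2 times per week for 6 weeks, beginning when the mice were 7 weeks old. The study's methods add that CD31- and PDGFRalpha- cells were taken, so endothelial cells and fibroblasts were gated away along with leukocytes. No untreated tumor stood beside these libraries, and the labels put none of them in a low or high hypoxia class, so each tumor is described by itself under its labelled number, 1 to 6.

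Laminins are trimers of an alpha, a beta and a gamma chain, and they polymerize into the sheet on which the basal face of an epithelium rests. Lama3 and Lamb3 encode chains of laminin-332, the laminin that anchors hemidesmosomes, and Lama5, Lamb1 and Lamc1 encode those of laminin-511, a broadly distributed laminin of epithelial and vascular basement membranes. Integrin alpha6 beta4 binds both, and the long cytoplasmic tail of its beta4 chain is joined to keratin filaments through plectin and the epithelial form of dystonin, while collagen XVII spans the membrane beside it. In the mammary gland the basal, or myoepithelial, layer lies against the basement membrane and is rich in these genes, and luminal cells carry alpha6 integrin at lower levels.

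The RefSeq promoter table for GRCm38.p6 matched 5 of the 9 members, with 7 entries, and the 250 bases before the annotated start are printed for 4 of them because these genes followed different patterns across the tumors. Lama5 and Lamb1 were highest in the same tumor, Lamb3 was not, and Col17a1 was close to undetected. Capitals mark the GC box (GGGCGG, a binding site of SP-family factors) or the TATA box (TATAAA), searched on both strands and printed 5′ to 3′ on the strand of the gene.
Lama5, chr2:180225860-180226109, minus strand: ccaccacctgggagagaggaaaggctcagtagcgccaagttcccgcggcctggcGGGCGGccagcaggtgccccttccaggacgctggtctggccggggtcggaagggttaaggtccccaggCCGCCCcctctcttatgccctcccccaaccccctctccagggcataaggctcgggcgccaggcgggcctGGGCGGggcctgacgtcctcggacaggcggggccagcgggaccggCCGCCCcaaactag
Lamb1, chr12:31265043-31265292, plus strand: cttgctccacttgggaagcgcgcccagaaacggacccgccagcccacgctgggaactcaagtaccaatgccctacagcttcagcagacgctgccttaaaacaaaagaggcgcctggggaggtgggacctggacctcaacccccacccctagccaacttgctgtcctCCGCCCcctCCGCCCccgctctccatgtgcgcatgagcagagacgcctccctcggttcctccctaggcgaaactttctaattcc
Lamb3, chr1:193301744-193301993, plus strand: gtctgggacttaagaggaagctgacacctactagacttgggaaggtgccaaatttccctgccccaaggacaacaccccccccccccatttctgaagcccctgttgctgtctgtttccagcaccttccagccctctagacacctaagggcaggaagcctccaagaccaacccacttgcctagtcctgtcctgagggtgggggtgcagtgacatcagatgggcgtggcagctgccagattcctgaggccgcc
Col17a1, chr19:47692043-47692292, minus strand: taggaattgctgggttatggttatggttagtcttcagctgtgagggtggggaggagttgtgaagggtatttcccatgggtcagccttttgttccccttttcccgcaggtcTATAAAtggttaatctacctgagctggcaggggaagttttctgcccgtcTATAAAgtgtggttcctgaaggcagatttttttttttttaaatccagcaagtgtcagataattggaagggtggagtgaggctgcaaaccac
The Lama5 promoter held 4 GC boxes and 19 CpG dinucleotides at 72.4% G and C, and the Lamb1 promoter held 2 GC boxes and 14 CpG at 62.0%. Neither held a TATA box. The Lamb3 window printed, 1 of 2 adjoining entries, had 2 CpG at 58.8% G and C and none of the motifs. The Col17a1 promoter, at 46.0% G and C and with 2 CpG, held 2 TATA boxes and no GC box. For comparison, the median over all 32851 promoter entries was 52.4% G and C and 6 CpG, a GC box was in 32.7% of them and a TATA box in 12.4%. Of the 2 Dst entries, 1 held 4 GC boxes and the other held none. The letters of an AP-1 site (TGANTCA, in 6.75% of all promoters) and of the core of a hypoxia response element (ACGTG, in 16.6%) were in none of the 7 entries. These matches describe letters in a window. Itga6, Itgb4, Lama3 and Lamc1 had no matched entry.

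In the GRCm38 assembly with GENCODE M21 genes, the members lie on 6 chromosomes. Itga6 (ENSMUSG00000027111) spans chr2:71745616-71858416 on the plus strand and Itgb4 (ENSMUSG00000020758) chr11:115974709-116008412 on the plus strand. Lama3 (ENSMUSG00000024421) spans chr18:12333819-12583013, Lamb3 (ENSMUSG00000026639) chr1:193207699-193343878 and Lamb1 (ENSMUSG00000002900) chr12:31265234-31329644, all on the plus strand. Lama5 (ENSMUSG00000015647) spans chr2:180176373-180225859 and Lamc1 (ENSMUSG00000026478) chr1:153218922-153332786, both on the minus strand. Col17a1 (ENSMUSG00000025064) spans chr19:47646344-47692094 on the minus strand and Dst (ENSMUSG00000026131) chr1:33908225-34308661 on the plus strand. The libraries were read from the polyadenylated 3′ end, so the last bases of the transcripts carried the counts, and no run of 50 bases in the last 300 bases of a member was shared with another gene. Dst was annotated with 9 complete coding transcripts that ended in 4 separate places, and Itga6 with 3 that ended in 2. The count of each of these genes sums over its forms.

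Counts on genes ranged from 2509482 to 5893246 per tumor with a median of 4854788.5, so 1 count stood for 0.170 to 0.398 CPM (a gene's counts after scaling all counts on genes of each library to the same total). A floor of 3 counts, at or below which a gene was treated as not detected, came to 0.509 to 1.20 CPM. Such limits cover counting error only. The labels gave each library its own identifier without saying that the tumors came from separate animals, so p-values measure the spread between these tumors. Those identifiers began with QAF for tumors 1, 4, 5 and 6 and with QSD for tumors 2 and 3, and the prefixes were not explained. The library of tumor 1 stood apart, its log2 levels correlating with those of the other libraries at a median r of 0.788, where the other 5 libraries had medians of 0.905 to 0.939. Luminal markers were high throughout, with a summed level of 3960 to 4870 CPM for 7 genes and all 7 above the floor in every tumor, while Ptprc (CD45), Pecam1 (CD31) and Pdgfra did not exceed 3.40 CPM. Of the remaining marker lists, the 5 erythroid genes together came to 5.66 to 69.4 CPM outside tumor 3, where they reached 864, and the adipocyte genes to at most 2.18. Pericyte genes summed to 45.5 to 78.6 CPM, nearly all Notch3, and 3 Schwann genes to 614 to 1990 CPM, nearly all Sox10 and Mbp. In sorted but bulk RNA, fewer cells of a kind and less RNA per cell cannot be told apart.

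The receptor was the most abundant pair of the 9 genes, and its chains had opposite extremes in tumor 1. Itga6, the alpha6 chain that pairs with beta4 or beta1, stood at 91.3, 467, 290, 512, 413 and 346 CPM in tumors 1 to 6. Tumor 1 was thus far below the other 5, whose lowest value was 290, and the median of all 6 was 379 CPM. Itgb4, the beta4 chain that is found only with alpha6 and nucleates the hemidesmosome, stood at 215, 116, 134, 102, 102 and 93.5 CPM. Here tumor 1 was the highest, and the other 5 stayed within 93.5 to 134 CPM. On the log2(TMM-scaled CPM + 1) scale, with TMM the trimmed mean of M-values that edgeR uses to scale libraries, tumor 1 lay 2.17 below the median of the others for Itga6 (log2 difference -2.17) and 1.02 above it for Itgb4. The coefficient of variation (CV, SD over mean) across tumors was 42.9% for Itga6 and 35.7% for Itgb4, against 2.66% and 4.25% from counting alone, and 22.1% and 14.3% without tumor 1.

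The ratio of Itga6 to Itgb4 counts within a library, which needs no scaling between libraries, was 0.424 in tumor 1 and 4.02, 2.17, 5.02, 4.04 and 3.70 in tumors 2 to 6. Itga6 was therefore the more counted chain in 5 of 6 tumors, with a median ratio of 3.86, or 3.00 when both were divided by exon length. By Dixon's ratio (the gap of the most extreme tumor to its neighbor over the whole range, set against its 95% critical value for 6 tumors), tumor 1 was extreme for Itga6 at 0.648 and for Itgb4 at 0.686. These were 2 of the 9 members, and 13.7% of the 8873 genes averaging 10 CPM or more had a tumor past that value, 11.5% through tumor 1. In CPM without TMM scaling Itgb4 was not past it, at 0.573, and on the linear scale Itga6 was not, at 0.446. Another laminin receptor, alpha3 beta1, had its alpha chain highest in tumor 1: Itga3 stood at 226 CPM in tumor 1 and at 98.5 to 211 in the others. On TMM-scaled levels, 36.5% of genes averaging 10 CPM or more were highest in that tumor. The ratio of Itga3 to Itga6 was 2.47 in tumor 1 and 0.238 to 0.512 elsewhere. Itgb1, the beta1 chain that pairs with alpha3 and can pair with alpha6, ranged from 142 to 282 CPM.

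Base composition moved with the levels of tumor 1. Across 8867 genes, the median log2 difference of tumor 1 from the others was -0.425 in the lowest of 4 equal groups of genes by G and C, and -0.125, 0.276 and 0.576 in the following groups, with a Spearman correlation across genes of 0.422. Genes share libraries and are not independent, so this is a description. The longest Itga6 transcript was 48.9% G and C (log2 difference -2.17) and that of Itgb4 60.0% (1.02). Among the laminin chains these values were 58.8% for Lamb2 (1.37), 55.6% for Lamb3 (0.78), 59.9% for Lama5 (0.02), 53.0% for Lamc1 (-0.06), 52.5% for Lamb1 (0.17) and 51.7% for Lama3 (-0.26). Among the receptor and linkage genes they were 57.9% for Itga3 (0.74), 54.4% for Cd151 (1.05), 61.3% for Plec (0.13), 49.5% for Dst (-0.10) and 44.8% for Itgb1 (-0.23). Those percentages are for whole transcripts, while the counts came from the 3′ ends. In the last 300 bases, G and C was 42.0% for Itga6 and 50.7% for Itgb4. Lamb1 (40.7%), Lamc1 (40.0%), Lama3 (31.0%), Col17a1 and Dst were lower there than Itga6. Lama5 (47.0%), Lamb3 (49.0%) and Lamb2 (58.3%) were higher than Itga6. The order by G and C thus differed between whole transcripts and their ends. The part of base composition in the receptor values was not tested. Galk1, on the opposite strand, ends 45 bases from Itgb4 and had 74.4 to 120 CPM, with a log2 difference of -0.09 in tumor 1. The kit keeps strand, but the strand setting of the counting was not given, so reads of Galk1 within the count of Itgb4 cannot be told apart.

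**Figure D1:**
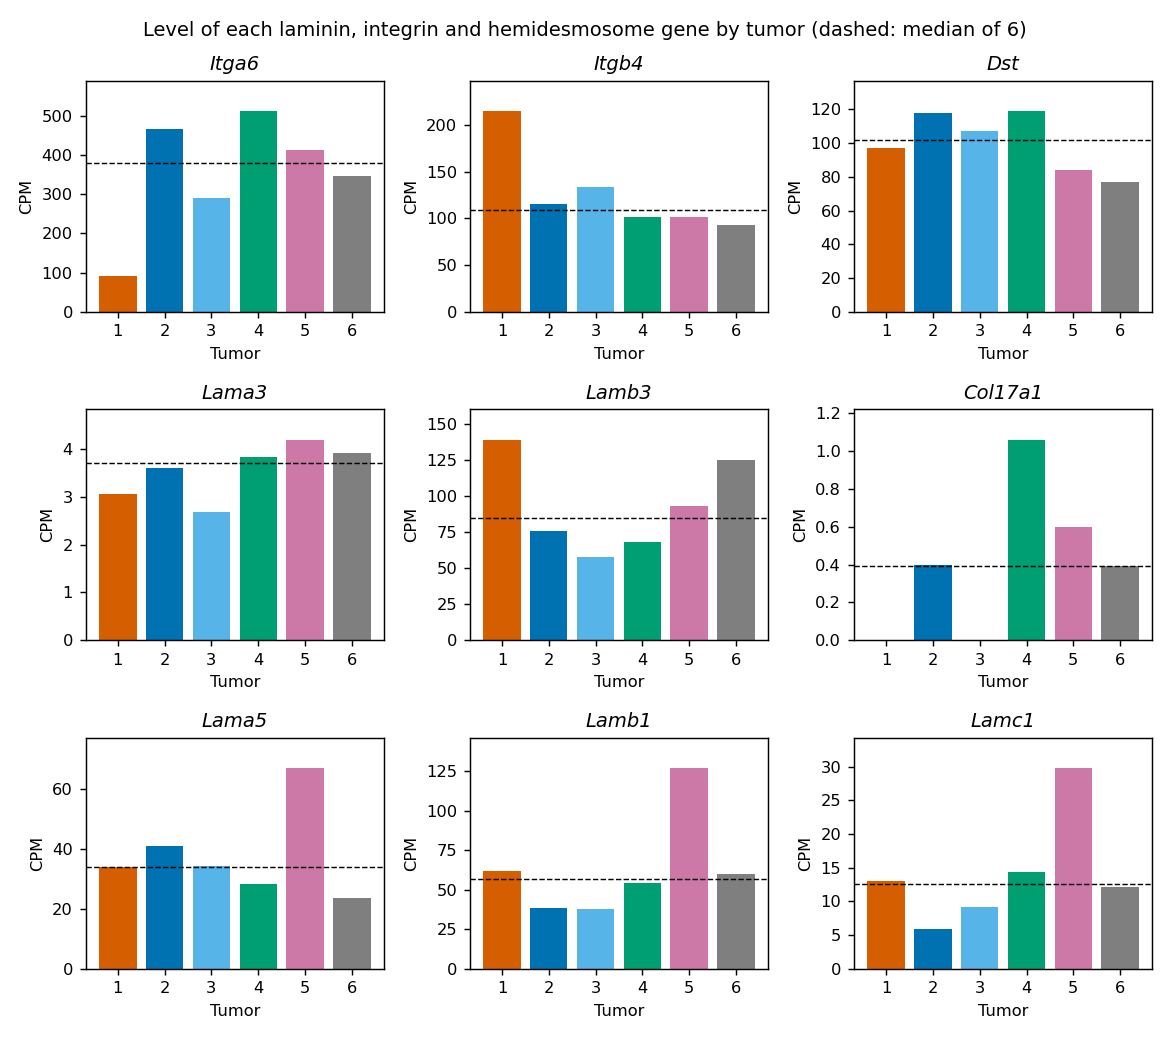
Level of each of the 9 genes in CPM (y axis, linear from 0, each panel with its own scale) in tumors 1 to 6 (x axis), with a bar for each tumor and the median of 6 as a dashed line. Tumor 1 is lowest for Itga6 (91.3 CPM) and highest for Itgb4 (215 CPM), tumor 5 is highest for Lama5, Lamb1 and Lamc1, and Col17a1 does not exceed 1.06 CPM.

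The measured laminin-332 chains were present in very unequal amounts, with little Lama3 RNA beside Lamb3. Lama3, the alpha3 chain, stood at 3.05, 3.59, 2.67, 3.83, 4.19 and 3.90 CPM, from 18, 9, 11, 18, 21 and 20 counts. It was above the floor in every tumor, and its CV of 16.2% was below the 25.8% that counting alone gives, so no difference between tumors was detectable at this depth. Lamb3, the beta3 chain known from this laminin, stood at 139, 75.7, 57.7, 67.9, 93.2 and 125 CPM. Tumors 1 and 6 were the highest and tumor 3 the lowest, a 2.41-fold range with a CV of 35.0% against 4.91% from counting.

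Lamb3 had 17.7 to 45.5 times the counts of Lama3, with a median of 21.9. Per exon length the ratio ran from 28.8 to 73.9 with a median of 35.6, so the order of the chains was the same on either scale. RNA levels of chains say nothing of the amount of trimer, which takes 1 chain of each. The lead of tumor 1 in Lamb3 over tumor 6 held in CPM and was turned by TMM scaling.

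The laminin-511 chains were all highest in tumor 5. Lama5, the alpha5 chain, stood at 33.9, 41.0, 34.4, 28.3, 67.1 and 23.8 CPM. Tumor 5 lay above the other 5, which reached at most 41.0, and its log2 difference from their median was 0.99. Lamb1, the beta1 chain, stood at 61.6, 38.3, 37.6, 54.0, 127 and 60.1 CPM. Tumor 5 was more than every other tumor again (log2 difference 1.22), and tumors 2 and 3 were the lowest. Lamc1, the gamma1 chain present in most laminins, stood at 13.1, 5.98, 9.21, 14.3, 29.8 and 12.1 CPM. Tumor 5 led once more (log2 difference 1.14), with tumor 2 lowest. The CVs of 40.3%, 52.4% and 58.6% for Lama5, Lamb1 and Lamc1 exceeded those of counting (7.91%, 5.91% and 12.4%).

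On TMM-scaled levels these were 3 of the 9 members with their highest value in tumor 5, whereas 14.4% of genes averaging 10 CPM or more were highest there. In CPM Lama3 was highest there as well, by 4.19 against 3.90 in tumor 6. Without tumor 1 the same count was 3 of 9, beside 19.8% of genes. Dixon's ratio did not single out tumor 5 for any of these chains (0.475 for Lama5, 0.508 for Lamb1 and 0.488 for Lamc1 on the log2 scale), although on the linear scale it was 0.657 for Lamb1 and 0.660 for Lamc1. Without tumor 1, 1 of 9 members passed the critical value for 5 tumors, which was Lama3 at 0.719 on 9 to 21 counts. Of genes averaging 10 CPM or more, 5.27% passed it, and no member among them did. Lama3, with a mean of 3.54 CPM, is not among them. On the same scale 1 member, Itgb4, was highest in tumor 1, beside 36.5% of genes.

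Among the 3 chains, Lamb1 and Lamc1 kept the steadier proportion. The ratio of Lamb1 to Lamc1 was 4.71, 6.40, 4.08, 3.79, 4.28 and 4.97 in tumors 1 to 6, a 1.69-fold range. The ratio of Lama5 to Lamc1 was 2.60, 6.87, 3.74, 1.99, 2.26 and 1.97, a 3.49-fold range with tumor 2 at the top. Both ratios of tumor 2 rest on 15 counts of Lamc1, in the library with the fewest counts. Without tumor 2, Lamb1 to Lamc1 ran from 3.79 to 4.97 and Lama5 to Lamc1 from 1.97 to 3.74. Lamb2, the beta2 chain that can take the place of Lamb1 beside Lama5 and Lamc1, stood at 323 CPM in tumor 1 and 131, 132, 102, 87.1 and 110 in tumors 2 to 6. It had more counts than Lamb1 in 5 tumors, with ratios of 1.83 to 5.24, and fewer in tumor 5, where the ratio was 0.684. Divided by exon length, the ratio stayed above 1 in all 6 tumors, from 1.12 to 8.55. Counts from 3′ ends depend little on transcript length, so the per-length ratio is given beside the counts and does not replace them. Adrm1, on the opposite strand, ends 87 bases from Lama5 and had 11.3 to 21.1 CPM, and reads of it within the count of Lama5 cannot be told apart.

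**Figure D2:**
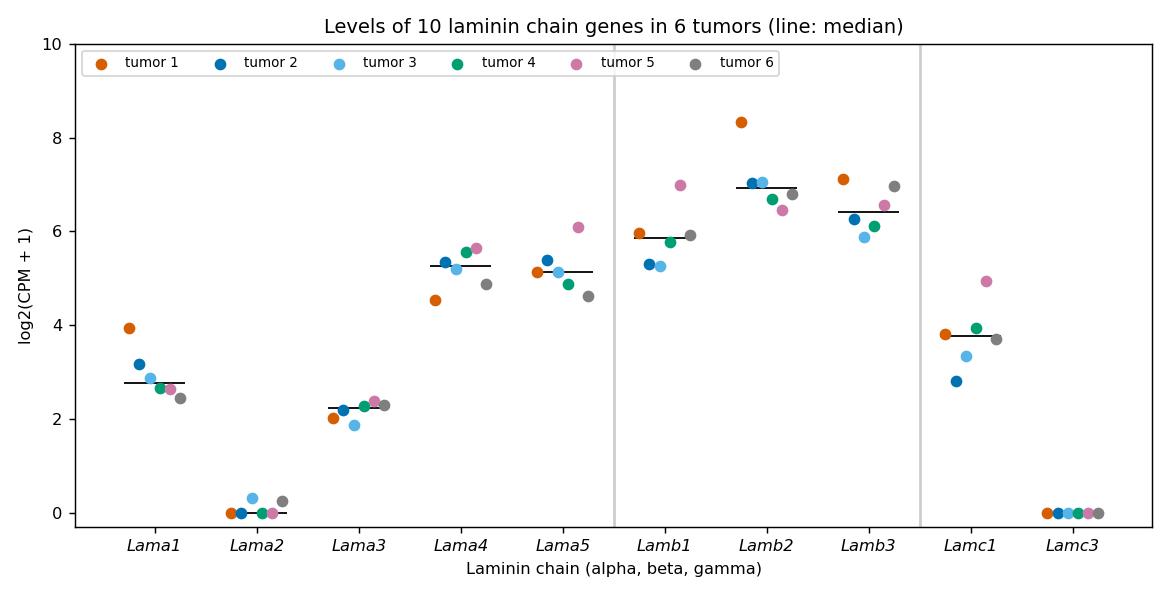
Level of 10 laminin chain genes as log2(CPM + 1) (y axis), grouped as alpha, beta and gamma chains (x axis), with a point for each of tumors 1 to 6 and a line at the median. Lama5 lies above Lama3 in every tumor, Lamb2 is highest in tumor 1, and Lama2 and Lamc3 lie at or near 0.

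Among the other laminin chains, Lamc3 had 0 counts in all tumors, which allows up to 0.509 to 1.20 CPM, and Lama2 had at most 1 count. Lama4 and Lama1, named here after their values were seen, ranged from 22.4 to 48.9 CPM and from 4.49 to 14.3 CPM. Lama4, like the laminin-511 chains, was highest in tumor 5, at 48.9 CPM against 46.2 in tumor 4, and Lama1 was highest in tumor 1. Lama4 encodes a chain known from vascular and mesenchymal basement membranes, and its CPM was close to that of Lama5 (median 37.5 against 34.2). Lama5 exceeded Lama3 by 6.10 to 16.0 times in counts and by 5.76 to 15.1 times per exon length.

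**Figure D3:**
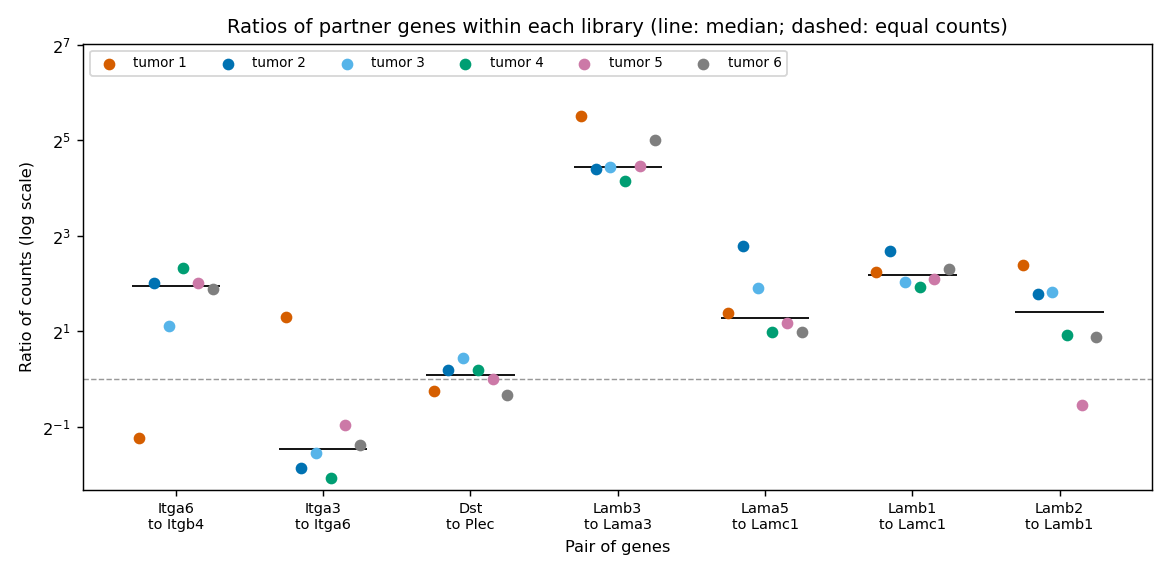
Ratio of the counts of partner genes within each library (y axis, log scale) for 7 pairs (x axis), with a point for each of tumors 1 to 6, a line at the median and a dashed line at equal counts. Tumor 1 is the only tumor below the dashed line for Itga6 to Itgb4 (0.424) and the only 1 above it for Itga3 to Itga6 (2.47), and tumor 5 is the only tumor below it for Lamb2 to Lamb1 (0.684).

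Of the hemidesmosome genes, Dst was present at similar levels in all 6 tumors, and Col17a1 was close to undetected. Dst, dystonin, the plakin that ties integrin beta4 and collagen XVII to keratin in epithelia, stood at 97.2, 118, 107, 119, 84.3 and 76.9 CPM. Among the 7 members averaging 10 CPM or more it had the smallest CV, with a 1.55-fold range and 17.4% (4.92% from counting). Without tumor 1 its CV was 19.2%, and Itgb4 was lower at 14.3%. Col17a1, collagen XVII, had 0, 1, 0, 5, 3 and 2 counts, so tumor 4 alone passed the floor, at 1.06 CPM. Its median was 0.394 CPM, and its CV of 97.9%, against 76.2% from counting, rested on at most 5 counts per tumor. Plec, plectin, the other plakin of the plaque, ranged from 79.3 to 116 CPM, and the ratio of Dst to Plec was 0.838, 1.13, 1.35, 1.13, 0.998 and 0.794. Per exon length that ratio fell to a median of 0.468, since the union of Dst exons is 41155 bases long. That union takes in the exons of all annotated forms, and counts from 3′ ends depend little on length.

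Cd151, a tetraspanin that binds laminin-binding integrins, stood at 216 CPM in tumor 1 and at 94.0 to 119 in the others. The keratins of the basal layer that hemidesmosomes hold were unequal, with Krt14 at 241, 116, 88.8, 117, 359 and 193 CPM and Krt5 at 4.24 to 17.4 CPM. Krt14 was highest in tumor 5, as were the laminin-511 chains. Krt5 was highest in tumor 4 in CPM, at 17.4 against 15.8 in tumor 6, and TMM scaling turned that order.

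Ordered by median CPM, the members ran Itga6, Itgb4, Dst, Lamb3, Lamb1, Lama5, Lamc1, Lama3 and Col17a1, and Itga6 had a mean above that of 98.4% of the genes with a count. Counts from 3′ ends depend little on transcript length, and the same order divided by exon length (TPM) ran Itga6, Itgb4, Lamb3, Lamb1, Lama5, Dst, Lamc1, Lama3 and Col17a1. In CPM, Lama5 over Lamc1, Lamc1 over Lama3 and Lama3 over Col17a1 held in 6 of 6 tumors, with mean log2 ratios of 1.51 ± 0.67, 1.77 ± 0.68 and 2.85 ± 0.93 (SD, n = 6). Each had an exact sign-flip permutation p of 0.031 (two-sided, n = 6), the smallest that 6 tumors allow, and 0.08333 after Benjamini-Hochberg adjustment over the 8 neighbors. The neighbors Itga6 and Itgb4 (5 of 6 tumors), Itgb4 and Dst (4 of 6), Dst and Lamb3 (3 of 6), Lamb3 and Lamb1 (5 of 6) and Lamb1 and Lama5 (5 of 6) had adjusted exact permutation p-values of 0.125 to 0.5625. No neighbor passed an adjusted 0.05 on either scale, and in TPM 4 steps held in 6 of 6 tumors with an adjusted exact p of 0.0625. The order was set by the medians of these same tumors, so the p-values describe its steadiness and are no independent test. The Lama3 to Col17a1 ratio took a pseudocount of 1 on 0 to 5 counts of Col17a1, so its size depends on that choice.

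Whether partners moved together was asked of 7 pairs, and 18 more relations set each member against basal markers and a hypoxia score, on log2(TMM-scaled CPM + 1). Lamb1 and Lamc1 had a Pearson r of 0.942 (exact permutation p = 0.0153, adjusted over 25 relations 0.165) and a Spearman rho of 0.771 (exact p = 0.103, adjusted 0.367). Their r was 0.883 without tumors 3 and 5, the farthest from the median of Lamb1, and 0.819 without tumor 5. As a description, 99.8% of the 8872 other genes had a lower r with Lamb1. Itga6 and Itgb4, which encode the chains of 1 receptor, had an r of -0.942 (exact permutation p = 0.0361, adjusted 0.181) and a rho of -0.714 (exact p = 0.136, adjusted 0.378). That relation rested on tumor 1: r was 0.386 without tumors 1 and 3 and -0.505 without tumor 1.

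The other 5 pairs had unadjusted exact permutation p-values for r of 0.0556 to 0.661 (n = 6). Lama3 and Lamb3 of laminin-332 had an r of 0.404 (exact permutation p = 0.410, adjusted 0.629). Lama5 had an r of 0.447 with Lamc1 and 0.565 with Lamb1 (exact permutation p = 0.375 and 0.244), and without tumor 5 these were -0.892 and -0.649, so the alpha chain did not follow its partners among the other 5 tumors. Col17a1 had an r of 0.203 with Dst and -0.756 with Itgb4 (exact permutation p = 0.661 and 0.0556), on at most 5 counts of Col17a1. Within an identifier prefix there were 4 and 2 tumors, fewer than the 6 on which a correlation was given here, so values were instead centered on the mean of each prefix and reordered within prefixes, an alternative chosen after seeing the data. Lamb1 and Lamc1 then had an r of 0.865 (exact permutation p = 0.229, adjusted 0.637), and Itga6 and Itgb4 an r of -0.965 (exact permutation p = 0.0417, adjusted 0.347). The 48 possible orders allow no p below 0.0208.

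The EPCAM+ gate can hold basal as well as luminal cells, so each member was set against the mean log2 level of 9 basal and myoepithelial genes (Krt5, Krt14, Krt17, Trp63, Acta2, Myh11, Cnn1, Mylk and Oxtr). Their summed level was 354, 173, 172, 248, 536 and 270 CPM in tumors 1 to 6, highest in tumor 5, with 5 of 9 above the floor in every tumor and the contractile markers Acta2, Myh11 and Cnn1 at no more than 5 counts. That lead came from Krt14 (359 CPM) and Krt17 (127 CPM). Trp63, the transcription factor that marks basal cells, was highest in tumor 4, at 16.0 CPM against 4.59 in tumor 5. Mylk, a kinase of contractile cells, was highest in tumor 1, at 65.7 CPM against 32.1 in tumor 5, and Oxtr, the oxytocin receptor, in tumor 6. Lamc1 had an r of 0.928 with this list (exact permutation p = 0.00278, adjusted 0.0694) and a rho of 0.943 (exact p = 0.0167, adjusted 0.278), and its r was 0.792 without tumors 2 and 3. Lamb1 had an r of 0.852 (exact permutation p = 0.0264, adjusted 0.165) and a rho of 0.886 (exact p = 0.0333, adjusted 0.278), and its r was 0.727 without those tumors. Centered on the prefixes, r was 0.815 for Lamc1 (exact permutation p = 0.167) and 0.621 for Lamb1 (exact permutation p = 0.396). The other 7 members, among them the laminin-332 and hemidesmosome genes for which basal cells are known, had r from -0.666 for Dst to 0.578 for Lama3 (unadjusted exact permutation p of 0.161 to 0.832, n = 6). Some of these moved when 1 tumor was left out. Itgb4 had an r of -0.41, and -0.921 without tumor 1, while Lama5 had 0.138, and -0.945 without tumor 5. With DESeq2 size factors in place of TMM, Lamc1 and the basal list passed the threshold (r = 0.923, adjusted exact permutation p = 0.0347), and over the scalings its r was 0.923 to 0.952.

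The study classed treated tumors by the area stained for pimonidazole, a marker of hypoxia, and set a 3-gene score beside those classes. That score, the mean TPM of Vegfa, Slc2a1 and Car9, was 48.5, 37.2, 51.4, 76.6, 94.4 and 47.3 in tumors 1 to 6. Lamc1 had an r of 0.872 with log2 of the score (exact permutation p = 0.0208, adjusted 0.165) and a rho of 0.771 (exact p = 0.103, adjusted 0.367), and its r was 0.687 without tumors 4 and 5. Lamb1 had an r of 0.705 (exact permutation p = 0.110, adjusted 0.392), which was 0.214 without those tumors. Centered on the prefixes, r was 0.833 for Lamc1 (exact permutation p = 0.0417, adjusted 0.347) and 0.516 for Lamb1 (exact permutation p = 0.542). The other 7 members had r from -0.430 for Itgb4 to 0.533 for Col17a1 (unadjusted exact permutation p of 0.258 to 0.714, n = 6). Over all 25 relations, 5 had an unadjusted exact permutation p under 0.05 and 0 an adjusted one, the smallest adjusted value being 0.0694. Centered on the prefixes, 23 of the 25 had the same sign, 3 had an unadjusted exact permutation p under 0.05 and 0 an adjusted one. Tumor 5 was highest in the score, the basal list and all 3 chains at once, and these cannot be told apart over 6 tumors.

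**Figure D4:**
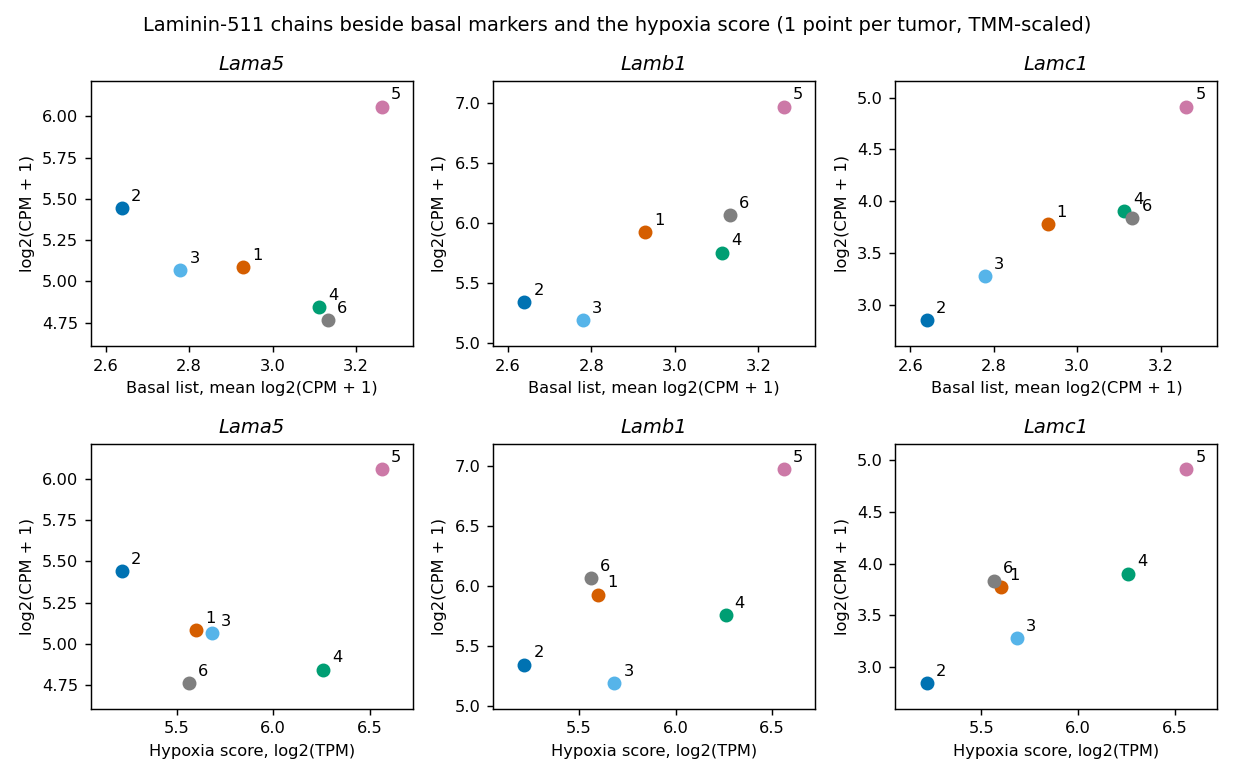
Level of Lama5, Lamb1 and Lamc1 as log2(TMM-scaled CPM + 1) (y axes) against the mean log2 level of the basal list (upper row) and log2 of the hypoxia score in TPM (lower row), with a numbered point for each tumor. Tumor 5 is at the upper right of every panel, and the other 5 tumors lie higher along the basal list for Lamc1 while they lie lower along it for Lama5 (r = -0.945 without tumor 5).

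Between the prefixes of the identifiers, Lamb1 and Lamc1 did not overlap and the other members did. Lamb1 was 37.6 to 38.3 CPM in tumors 2 and 3 and 54.0 to 127 in the other 4, and Lamc1 was 5.98 to 9.21 against 12.1 to 29.8. These were 2 of the 9 members whose values did not overlap between the prefixes, beside 15.4% of genes averaging 10 CPM or more. The beta chain Lamb3 overlapped, with 57.7 to 75.7 CPM in tumors 2 and 3 and 67.9 to 139 in the other 4.

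Of 30 other genes of laminins, their receptors, the basement membrane and the linkage to the cytoskeleton, 24 were above the floor in every tumor. These were 3 of 5 other laminin chains, 4 of 4 hemidesmosome and adaptor genes, 6 of 7 receptors, 7 of 10 basement membrane genes and 4 of 4 genes of the cytoskeletal linkage. Of these 24, 9 were highest in tumor 1 and 9 in tumor 5, against backgrounds of 36.5% and 14.4%, and 12 were highest in tumor 5 once tumor 1 was left out, against 19.8%. Named after their values were seen, the type IV collagen chains Col4a1 and Col4a2 stood at 120 and 58.7 CPM in tumor 5, where the other tumors had 3.19 to 13.9 and 1.20 to 10.2 CPM. Col18a1, a basement membrane collagen, had 18.4 CPM there and 1.59 to 5.94 elsewhere. Of 7 basement membrane genes above the floor throughout, 3 were highest in tumor 5, 2 in tumor 2 and 2 in tumor 3. Col4a6, also a type IV chain and also named afterwards, had 55.3 CPM in tumor 3 and 48.1 in tumor 5. Endothelial markers were low: 6 genes summed to 1.59 to 4.12 CPM over the tumors with 3.99 in tumor 5, Emcn and Cldn5 were at 0 in all, and none of the 6 was above the floor in every tumor. The 7 fibroblast genes summed to 22.8 CPM in tumor 5, within the 15.3 to 26.4 of all tumors, and Lum was at no more than 1 count. Immune markers (12 genes, 104 to 307 CPM, Cd79a at 0) were highest in tumor 3, at 129 in tumor 5. Some genes within the endothelial and fibroblast lists, such as Kdr and Col3a1, were highest in tumor 5, and others, such as Dcn and Col1a1, were not. The source of the collagen RNA in tumor 5 was not tested.

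**Figure D5:**
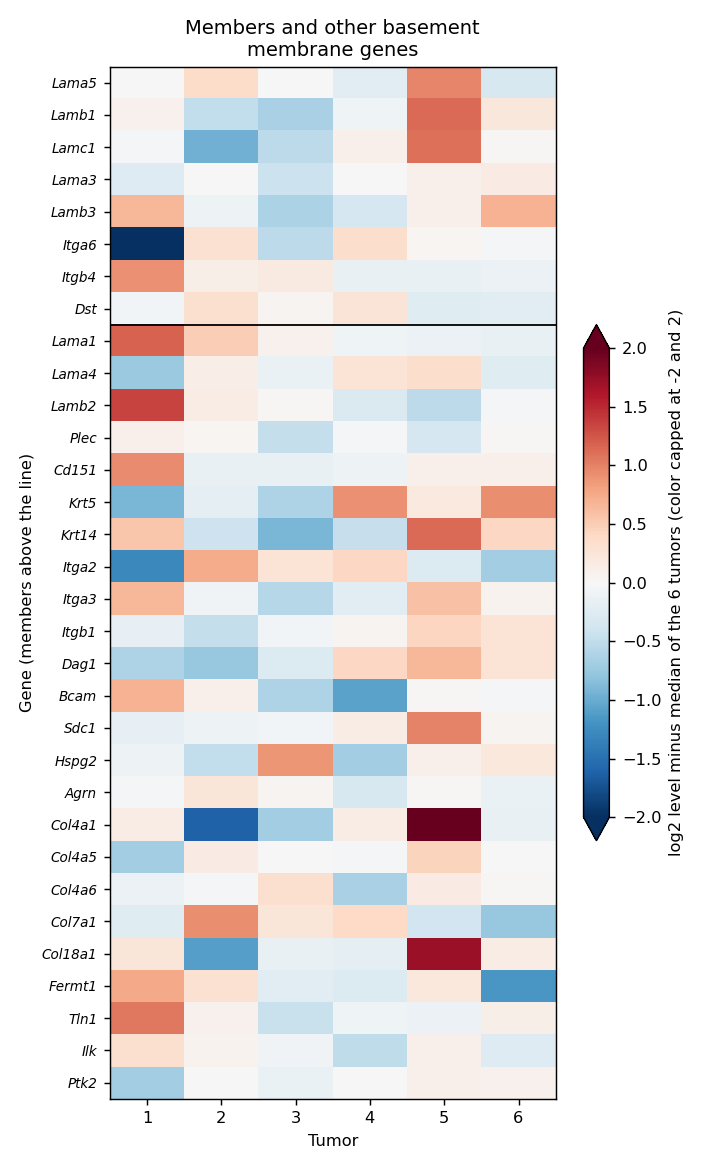
Log2(TMM-scaled CPM + 1) minus the median of the 6 tumors (color, capped at -2 and 2) for 8 members, above the line, and the 24 other genes above the floor in every tumor (rows), by tumor (columns). Col17a1 is left out as it passed the floor in 1 tumor. The dark red cell of Col4a1 in tumor 5 and the dark blue cell of Itga6 in tumor 1 are the largest departures, and Lama5, Lamb1 and Lamc1 are red in tumor 5.

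The spread between tumors beyond counting, as edgeR's biological coefficient of variation (BCV), was 0.462 for Itga6, 0.452 for Lamc1 and 0.403 for Lamb1, above the median of 0.354 over 12088 genes. Dst had 0.274, and 7.33% of genes were lower. Without tumor 1 it had 0.226 with 20.5% of genes lower, and Itgb4 had 0.207 with 5.30% lower. The other members that passed the filter on counts lay between 0.326 for Itgb4 and 0.359 for Lamb3, and Col17a1 did not pass it. Without tumor 1, the BCV of Itga6 was 0.247 and 37.0% of genes were lower, in place of 82.0%, and without tumor 5 those of Lamb1 and Lamc1 were 0.312 and 0.365.

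Over the 6 tumors, the gene most like each member by Pearson r among those averaging 10 CPM or more was Atp7a for Itga6 (0.999), Pfkm for Itgb4 (0.995), Tmem139 for Lamb3 (0.995), Kpnb1 for Lamb1 (0.990), Stam for Lamc1 (0.988), Taf4b for Dst (0.987), Cwh43 for Lama3 (0.985), Macf1 for Col17a1 (0.975) and Tpm2 for Lama5 (0.946). With 8873 genes and 6 tumors such values arise for many genes: 426 genes had an r over 0.95 with Itga6, 197 with Itgb4 and 9 to 22 with each of the others but Lama5, which had 0. None of the nearest genes was another laminin, integrin or hemidesmosome gene.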

How the data were processed

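CD45-EPCAM+ cells from 6 B20-4.1.1-treated tumors were profiled by QuantSeq 3′ RNA-seq, 1 library each. The deposited values are raw read counts per gene. The authors made them on the Bluebee platform by trimming with bbduk, alignment with STAR 2.5 (GRCm38/mm10) and counting with HTSeq. The strand setting, annotation release and any collapsing of the 6-base molecular identifiers were not given in the sources used here. The 5 lines per table that name no gene (16.1 to 41.4% of reads) were left out of library sizes. Of 47643 gene identifiers, 47224 matched GENCODE M21, used for symbols, positions and union exon lengths.

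From the counts, CPM, TPM and TMM-scaled CPM were computed (edgeR 4.0.16 and DESeq2 1.42.0 in R 4.3.3, scipy 1.17.1 in Python 3.11.15), with TMM factors of 0.911 to 1.06 on 12088 genes that passed filterByExpr (min.count 10, min.total.count 15, groups of 3). A pseudocount of 1 preceded logs. Order and relations used exact two-sided permutation tests over tumors (720 orders, smallest p 0.00139) with Benjamini-Hochberg adjustment. Dixon's ratio used log2 TMM levels, and dispersion an intercept-only edgeR fit. Dixon's ratio and the permutation tests were tried on simulated data, and the dispersion fit was not. For Dixon's ratio the simulation used CPM, with less spread between tumors than the median gene here. The 15 pairs of libraries differed beyond counting (chi-square per degree of freedom 13.6 to 84.7). The members, lists and tests were chosen with earlier results of these data known. Named genes are the members, Lamb2, Plec, Cd151, Krt5, Krt14, Itga3, Itgb1, the score and gate genes, the marker lists, genes ending within 1000 bases of a member's 3′ end, and the gene most like each member. Other genes are named as chosen afterwards. Alternatives were other scalings, a pseudocount of 0.5, TPM, other filters, leaving out each tumor, and, for relations, values centered on the identifier prefixes. Hypoxia classes were not analysed here, and 2 genes of the lists are not reported here.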

Additional observations from a re-analysis of the deposited data

Results flagged for a closer look

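In 33 sets of 6 values (levels and ratios of the members and their partners), 6 had a tumor past the critical value of Dixon's ratio. Chance alone gives about 1 in 20, here 1.65, and of the 8873 genes averaging 10 CPM or more 13.7% had such a tumor, 11.5% through tumor 1. The outlying tumor was tumor 1 in all 6. Tumor 1 was low for Itga6 (Dixon's ratio 0.648) and high for Itgb4 (0.686). It was low for the ratio of Itga6 to Itgb4 (0.660) and high for that of Itga3 to Itga6 (0.673). Lamb2 (0.643) and Cd151 (0.772) were high in it. This is the library that stood apart from the others over all genes, and the 6 sets share genes and are not independent. The cause was not tested.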

How the results depend on the processing

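Of 81 alternative values of the members' median CPM, 79 moved by under 1 SD across tumors. Leaving the 10 most abundant genes out of the library size moved the medians of Lama3 to 4.64 and Dst to 120 CPM. With DESeq2 size factors, 1 relation to the basal list had an adjusted exact permutation p under 0.05 in place of 0. The cause was not tested. With CPM in place of TMM scaling, 1 member was past Dixon's critical value in place of 2 (Itgb4 came to 0.573), beside 14.7% of genes, and on the linear scale 3 were, namely Itgb4, Lamb1 and Lamc1 but not Itga6 (0.446), beside 16.4% of genes. Without tumor 1, an alternative chosen after seeing the data, 1 member was past it, Lama3, which averaged under 10 CPM. Of genes averaging 10 CPM or more, 5.27% were. Leaving out each tumor in turn, r ranged from -0.177 to 0.819 for Lama3 and Lamb3, -0.892 to 0.807 for Lama5 and Lamc1, -0.649 to 0.749 for Lama5 and Lamb1 and -0.235 to 0.435 for Col17a1 and Dst. The count of neighbors in the same order in every tumor was 3 to 4 in these settings. Without any filter on counts, the share of genes with a lower dispersion fell, for example to 47.1% for Itga6, since low-count genes entered. No paired analysis was possible because all tumors belong to 1 group. Depth limits Lama3, whose CV was below that of counting, and Col17a1, with at most 5 counts per tumor.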
